A study of Mus musculus with 52 samples.

Results

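Otx2, Fgf5, Pou3f1, Sall2, Zic2 and Zic5, 6 genes that mark or shape the formative epiblast, were followed through a mouse stem cell embryo model. The 6 members were picked by symbol from a table of 55291 genes in 52 mRNA sequencing libraries, and all 6 were among the 25056 genes kept by a filter on low counts. Every library was wild type (WT) and came from either of 2 cell lines, so each line stands for a single source of cells. Libraries of the line mc6-1/Mu-mClover3-10# were taken from extended pluripotent stem cells (EPSCs) and what was grown from them, and libraries of the line 2i-0606-td-ES from embryonic stem cells (mESCs). No label ties a group's libraries to separate cultures, so p-values here measure only the spread between these libraries.

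The groups were as follows, each with n = 2 libraries except the EPSCs. S5 aggregates came from S4 structures placed, on day 1, in a peri-implantation medium on Aggrewell plates for 3 days, in full medium or without Activin A, BMP4, FGF4 or XAV939 (a tankyrase inhibitor that lowers Wnt signalling). S3 aggregates were S2 aggregates after 1 more day in a medium named 4C-64C, and S2 aggregates were S1 cells after 1 day in it. Both were also made without 8Br-cAMP (a cyclic AMP analogue), Birabresib (a BET bromodomain inhibitor), CHIR-99021 (CHIR, a GSK3 inhibitor that activates Wnt signalling) or CD1530 (an agonist of retinoic acid receptor gamma). P38 and P25 were EPSCs kept in a totipotency medium for 38 and 25 passages. S1 was EPSCs in that medium for 2 days, and mESC-S1 was mESCs in it for 2 days. Further EPSCs were given CHIR for 2 days, alone or with CD1530, with the HIV integrase inhibitor Elvitegravir or with the MEK inhibitor PD0325901. The mESCs were kept in 2i/L medium. The EPSCs were kept in LCDM medium, whose published formula itself contains CHIR, and the base medium of the CHIR groups was not given. S4 was not analysed here.

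As background, the formative state lies between the naive pluripotency of the pre-implantation epiblast and the primed state that precedes gastrulation. As cells leave the naive state, FGF and ERK signalling rises, OTX2 and the POU factor OCT6 (encoded by Pou3f1) join POU5F1 at new enhancers, and naive factors decline. Fgf5 is the classic marker of the post-implantation epiblast. OTX2 is also made in the anterior visceral endoderm and the anterior neural plate, and ZIC2 and ZIC5 act in the neural plate, so none of these genes marks a single cell type.

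Libraries held from 16.6 to 108 M counts. A first set of 12 libraries (S1, the CHIR groups and 2 EPSC libraries) and a second set of 40 (all others, with 2 more EPSC libraries) differed in title style, and 3756 tested genes had no count in the first set. Those genes stay in the total behind the shares given for comparisons within set 1, which makes these shares lower. EPSC levels also differed between the sets: Otx2 averaged 25.5 CPM (counts scaled to library size) in set 1 and 15.0 CPM in set 2, and Zic2 15.0 and 30.8 CPM, so each comparison with EPSCs used the EPSC pair of its own set. Set 2 is itself not uniform. Read mates seem counted together in its EPSC, P25 and P38 libraries and separately in its other libraries. Comparisons of S5 or mESCs with EPSCs and of S2 with P25 cross that split, which cannot be told apart from the contrast. Naive pluripotency genes, the defining markers of the starting cells, were present at summed levels of 4788 to 4887 CPM in mESCs, 3118 to 3282 CPM in EPSCs of set 1 and 4745 to 4989 CPM in EPSCs of set 2, with none of the 14 at 0. Levels below are CPM after TMM scaling, with the SD of 2 libraries. Differences are log2 fold changes with their SE from edgeR's quasi-likelihood F test, with Benjamini-Hochberg adjustment of the p-values across the full set of tested genes. A gene rose or fell where its adjusted p was below 0.05 and its absolute log2 fold change was 1 or more. Overlap between groups is given as description only. With 2 libraries a group, unchanged genes often fail to overlap too, and the share over all genes was not taken.

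In the mm10 mouse genome, 4 of the 6 genes lie on chromosome 14. Zic5 (chr14:122456795-122465677, minus strand) and Zic2 (chr14:122475435-122479852, plus strand) are divergent neighbours whose bodies stand 9757 bases apart. Otx2 lies at chr14:48657677-48673819 and Sall2 at chr14:52311172-52328762, both on the minus strand. Fgf5 lies at chr5:98254184-98277030 and Pou3f1 at chr4:124656807-124660655, both on the plus strand. Of the exon bases of Pou3f1, 8.57% are shared with Gm2164, and of those of Otx2, 3.98% are shared with Otx2os1 and Gm49154. No source used here says whether counting used strand, so reads from those shared stretches cannot be assigned to either gene with certainty.

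RefSeq promoter windows (GRCm38.p6, 250 bases before to 50 bases after a transcript start) were held for 4 of the 6 genes, in 8 windows, and not for Pou3f1 and Zic2. Both strands were searched for 5 short motifs tied to the factors and agents of this study: the POU octamer ATGCAAAT, held by 1.74% of 32851 promoter windows, the TCF/LEF motif CTTTGAT (3.73%), the OTX core TAATCC (7.06%), the ZIC core CCTGCTG (10.5%) and the nuclear receptor motif AGGTCA (16.3%). None of these motifs overlaps another in the windows printed. The windows printed are those of the 2 starts that held a match, Otx2 and Zic5, and of Fgf5, the gene that differed most between S5 and S3. Capitals mark the match, which lay on the strand opposite to the gene in both cases and is therefore printed as its reverse complement.
Otx2 promoter (chr14:48665060-48665359, minus strand): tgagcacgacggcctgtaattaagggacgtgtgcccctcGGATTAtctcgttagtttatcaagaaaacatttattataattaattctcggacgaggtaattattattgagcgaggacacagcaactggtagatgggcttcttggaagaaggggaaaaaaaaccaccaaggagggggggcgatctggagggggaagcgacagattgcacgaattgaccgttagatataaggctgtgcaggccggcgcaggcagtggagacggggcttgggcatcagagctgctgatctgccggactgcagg
Zic5 promoter (chr14:122465609-122465908, minus strand): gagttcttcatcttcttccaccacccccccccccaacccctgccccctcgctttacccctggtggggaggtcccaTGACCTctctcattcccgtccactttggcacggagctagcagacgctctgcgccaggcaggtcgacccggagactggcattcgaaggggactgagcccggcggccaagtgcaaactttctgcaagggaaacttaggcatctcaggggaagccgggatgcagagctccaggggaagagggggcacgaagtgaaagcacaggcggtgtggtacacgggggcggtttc
Fgf5 promoter (chr5:98253934-98254233, plus strand): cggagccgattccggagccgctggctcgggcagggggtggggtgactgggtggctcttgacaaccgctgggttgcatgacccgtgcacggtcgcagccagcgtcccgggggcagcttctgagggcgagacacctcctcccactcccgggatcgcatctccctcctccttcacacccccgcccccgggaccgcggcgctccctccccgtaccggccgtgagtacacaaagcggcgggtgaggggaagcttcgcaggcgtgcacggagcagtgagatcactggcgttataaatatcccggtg
The Otx2 window held 1 OTX core, starting at position −211 from the transcript start, and the Zic5 window held 1 nuclear receptor AGGTCA motif, starting at position −175. The Fgf5 window held none of the 5 motifs, and neither did the 2 Sall2 windows or the other 3 Otx2 windows. These matches describe the letters of the windows and show no binding.

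Across the 26 group means (EPSCs counted once per set), the S5 groups held the 5 highest means of every gene. Otx2, a homeobox factor, ran from 126 ± 11 CPM in S5 to 0.0948 ± 0.018 CPM in CHIR plus CD1530, and 15 of the 25 neighbouring pairs in its order did not overlap. Fgf5, a secreted growth factor, stood at 26.3 to 69.8 CPM in the S5 groups and at no more than 2.26 ± 0.38 CPM (CHIR) in any other group. Of the 25 neighbouring pairs in its whole order, 18 overlapped. Pou3f1 ran from 170 ± 21 CPM in S5 without FGF4 to 0.428 ± 0.027 CPM in S3 without 8Br-cAMP, with 17 pairs overlapping. The zinc finger factor Sall2 ran from 92.6 ± 2.4 CPM in S5 without FGF4 to 4.75 ± 0.006 CPM in EPSCs of set 2, with 11 pairs overlapping. Zic2 and Zic5 also peaked in S5 without FGF4, at 277 ± 8.3 and 134 ± 7.4 CPM, and both were lowest in CHIR plus CD1530, at 7.30 ± 0.55 and 7.53 ± 0.16 CPM. In this order 15 neighbouring pairs overlapped for Zic2 and 13 for Zic5.

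**Figure D1:**
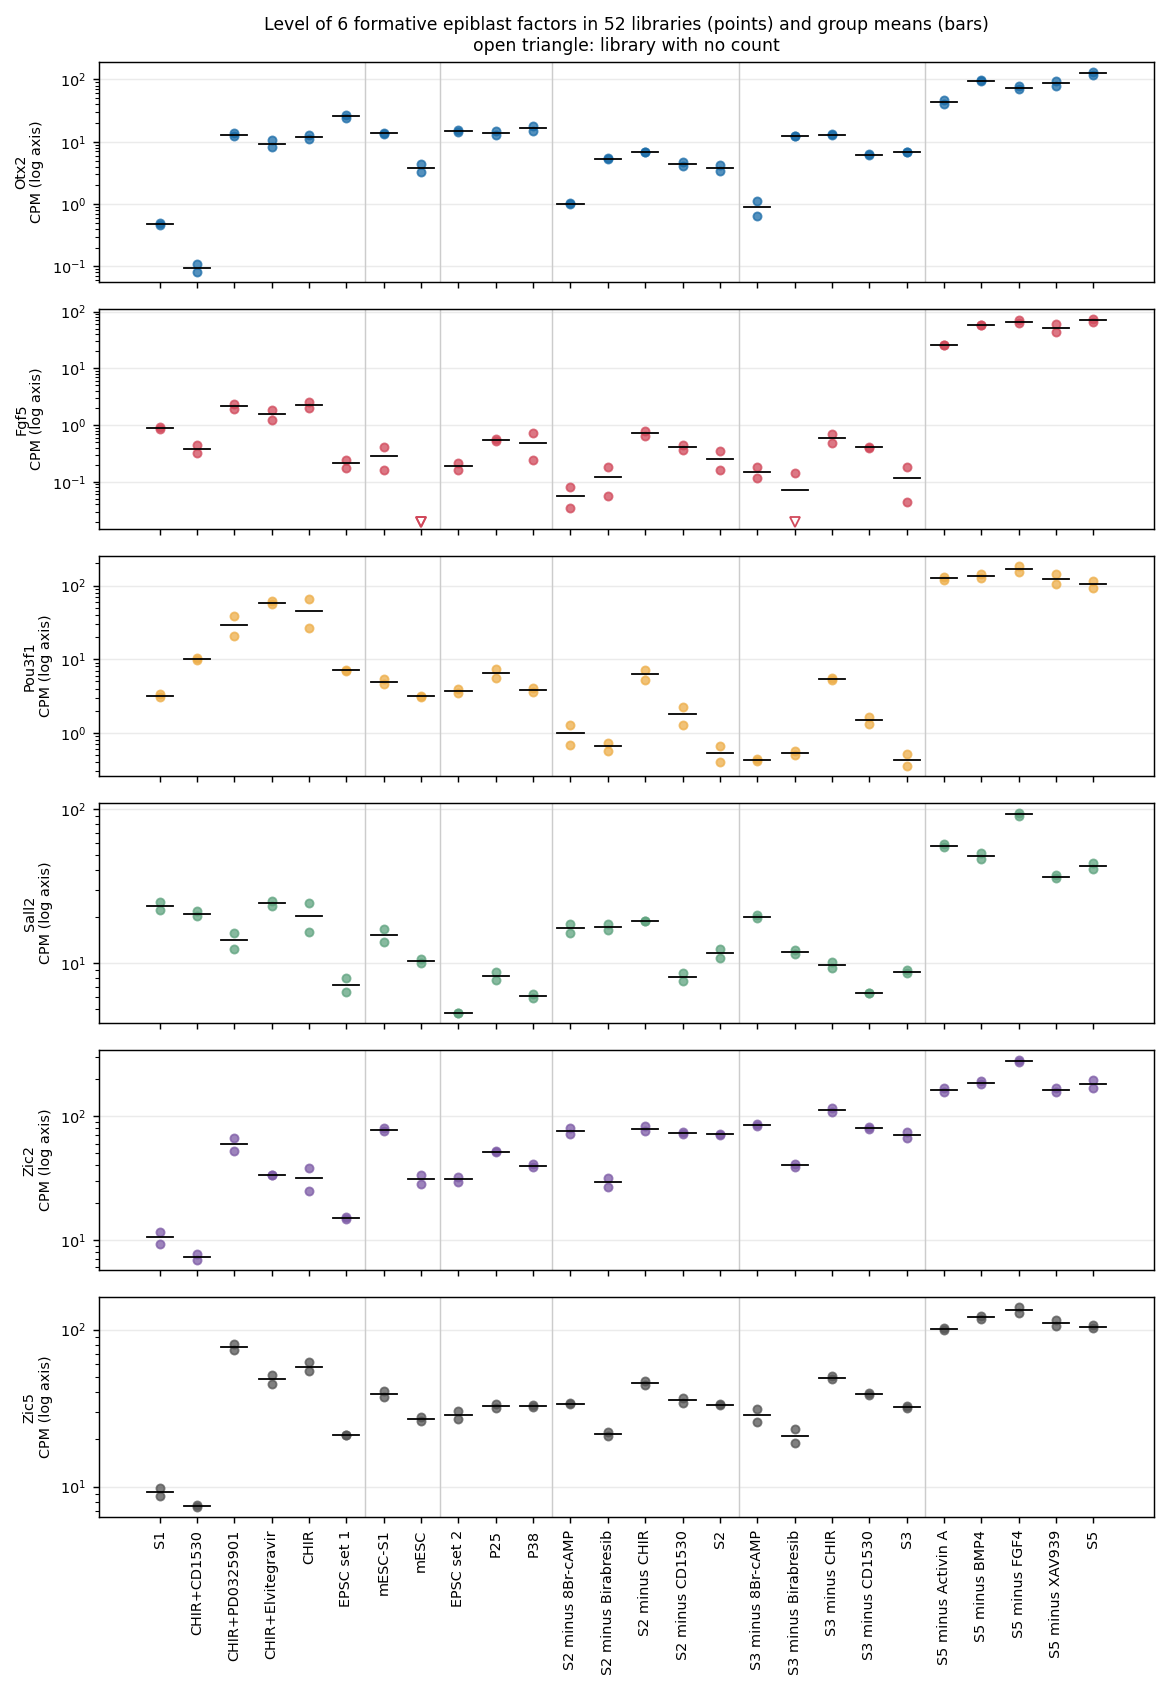
Level of each gene (vertical log axis, CPM) in each library (points) of the 26 groups (horizontal axis), with bars at the group means and an open triangle, drawn at the foot of the axis, for a library with no count. The S5 groups hold the highest values of all 6 genes, with Fgf5 at 26.3 CPM or more there and at 2.26 CPM or less on average elsewhere.

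All 6 genes rose in S5 aggregates relative to S3 aggregates, where 14.1% of all tested genes rose. Fgf5 measured 65.5 and 74.0 CPM in the S5 libraries, against 0.186 and 0.0447 CPM in the S3 libraries, which held only 8 and 2 counts. Pou3f1 measured 116 and 92.1 CPM in S5, against 0.510 and 0.357 CPM in S3. Both genes were therefore near silent in both S3 libraries and abundant in both S5 libraries. Their log2 fold changes were 9.22 (SE 0.37, adjusted p = 2.5e-21) for Fgf5 and 7.90 (SE 0.38, adjusted p = 2e-19) for Pou3f1, or 597-fold and 239-fold. The Fgf5 value rests on few S3 counts and was 10.52 without the first S3 library and 8.54 without the second.

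The other 4 genes were already present in S3 and rose less. Otx2 measured 118 and 133 CPM in S5, against 6.89 and 6.95 CPM in S3, a log2 fold change of 4.18 (SE 0.15, adjusted p = 6.3e-23). Sall2 measured 44.5 and 41.0 CPM in S5, against 8.95 and 8.62 CPM in S3 (2.28, SE 0.14, adjusted p = 4.8e-16). The groups did not overlap for either gene. Zic5 measured 102 and 107 CPM in S5, against 32.4 and 31.6 CPM in S3 (1.71, SE 0.097, adjusted p = 3.8e-17). Zic2 measured 168 and 194 CPM in S5, against 75.1 and 65.9 CPM in S3 (1.36, SE 0.13, adjusted p = 2.7e-11). Zic2, the most abundant in S3, had the smallest of the 6 changes. The median log2 change of the 6 genes was 3.23, beside 0.00 over all tested genes.

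**Figure D2:**
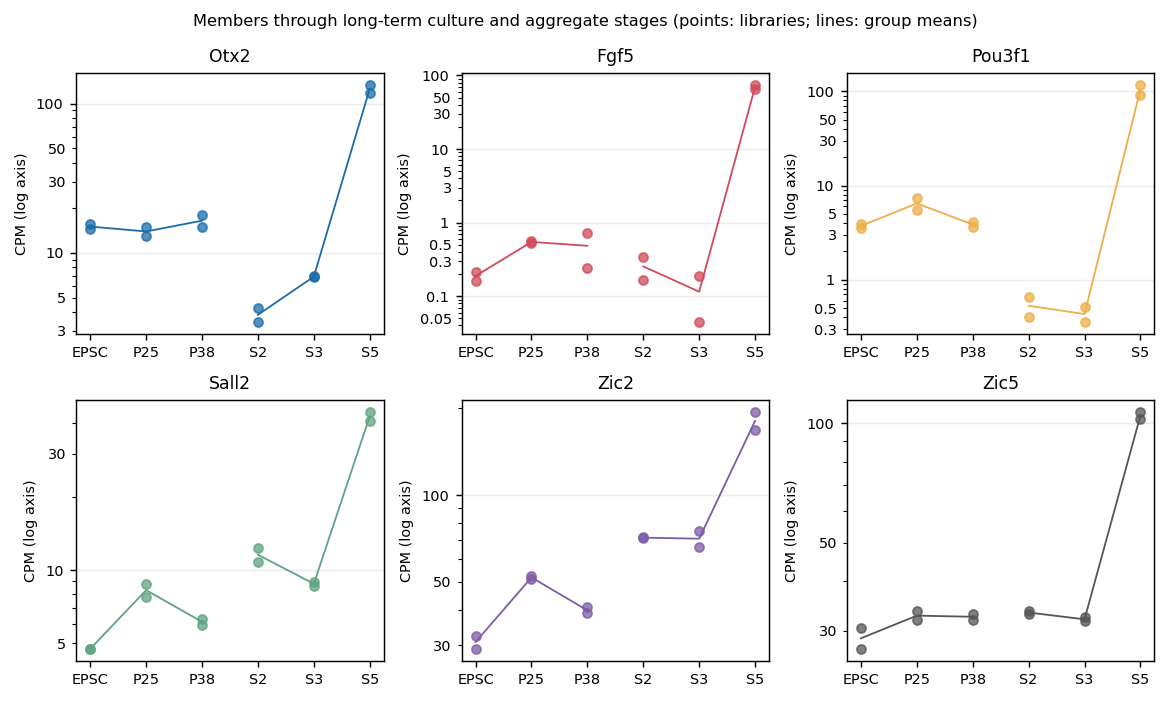
Level of each gene in both libraries (points, CPM on a log axis) of EPSCs (set 2), P25, P38, S2, S3 and S5, with lines through the group means of the cultures and of the aggregates. Fgf5 and Pou3f1 lie below 1 CPM in S2 and S3 and at 65.5 CPM or more in S5, while Zic2 lies between 65.9 and 75.1 CPM in S2 and S3.

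Per kilobase of exon sequence, which allows levels of different genes to be compared, Zic2 led in S5 at 62.8 ± 6.5 CPM per kb. Otx2, Fgf5 and Pou3f1 came next at 29.8 ± 2.5, 27.9 ± 2.4 and 27.1 ± 4.4 CPM per kb, with ranges of mean ± SD that overlap. Zic5 followed at 21.4 ± 0.64 CPM per kb and Sall2 at 7.87 ± 0.46 CPM per kb. In S3, by contrast, Zic2 stood at 24.5 ± 2.2 CPM per kb and Fgf5 at 0.0460 ± 0.040 CPM per kb.

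Against EPSCs of set 2, all 6 genes also rose in S5, as did 14% of tested genes. This comparison shares the S5 libraries with the one above, so it adds the EPSC level only. Read mates seem counted separately in S5 and together in these EPSCs, which cannot be told apart from the contrast. Fgf5 averaged 69.8 ± 6.0 CPM in S5 and 0.188 ± 0.039 CPM in EPSCs, a log2 fold change of 8.51 (SE 0.39). Pou3f1 averaged 104 ± 17 CPM in S5 and 3.73 ± 0.32 CPM in EPSCs (4.80, SE 0.31). Otx2, at 126 ± 11 CPM in S5 and 15.0 ± 0.89 CPM in EPSCs, rose by 3.07 (SE 0.15). Sall2 (3.17, SE 0.16), Zic2 (2.55, SE 0.14) and Zic5 (1.87, SE 0.10) rose too, each with an adjusted p of 6e-18 or below.

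Other formative and early epiblast genes moved with the members in S5: 13 of 19 tested rose and none fell relative to S3, with a median log2 fold change of 2.08. Dnmt3b, a de novo DNA methyltransferase, averaged 879 ± 22 CPM in S5 and 106 ± 1.7 CPM in S3 (3.05, SE 0.087), and the Nodal co-receptor gene Tdgf1 averaged 812 ± 22 CPM in S5 and 20.4 ± 1.6 CPM in S3 (5.32, SE 0.18). In the naive list 8 of 14 genes fell and 1 rose. Nr5a2, a nuclear receptor of the naive network, averaged 4.80 ± 2.6 CPM in S5 and 60.3 ± 5.8 CPM in S3 (−3.65, SE 0.19), and Tfcp2l1 and Esrrb fell as well.

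Markers of other cell types moved in the same comparison. Of 14 visceral and anterior visceral endoderm genes 12 rose, and their summed level was 2878 to 4214 CPM in the S5 libraries and 139 to 144 CPM in the S3 libraries, where Cer1 and Afp were at 0. Of 13 tested neural genes 9 rose and 1 fell, with sums of 95.8 to 109 CPM in S5 and 25.9 CPM in both S3 libraries. Sox1, an early neural factor, averaged 15.6 ± 5.3 CPM in S5 and 2.01 ± 0.63 CPM in S3, and Hes5 was at 0 in both stages. Of 10 primitive streak genes 5 rose and 2 fell. The part of these cell types in the rise of Otx2 and of the Zic genes was not tested. In bulk RNA, more cells of a type and more RNA per cell cannot be told apart.

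Among the S5 omissions, leaving out Activin A lowered Otx2 and Fgf5, in a comparison in which 0.714% of tested genes fell. Otx2 measured 40.2 and 46.7 CPM without Activin A, against 118 and 133 CPM in full S5 medium, and fell by 1.53 on the log2 scale (SE 0.13, adjusted p = 2.5e-10). Fgf5 measured 26.3 CPM in both libraries without Activin A, against 65.5 and 74.0 CPM in full medium, and fell by 1.41 (SE 0.21, adjusted p = 2.5e-05). The groups did not overlap for either gene. Pou3f1 averaged 127 ± 9.0 CPM without Activin A and 104 ± 17 CPM with it, and it did not pass the test, nor did Sall2, Zic2 or Zic5. Of the other formative genes only Nodal fell and Wnt8a rose. Of the visceral endoderm list 7 fell, among them Cer1 and Lefty1, and 1 rose, while its summed level was 3405 to 3529 CPM without Activin A and 2878 to 4214 CPM with it. The streak factors Gsc, Lhx1 and Eomes fell too, among 5 of 10 that did, while 1 rose, and 5 of 14 naive genes fell. The part of these cells in the Otx2 and Fgf5 values was not tested.

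Without FGF4, Sall2 was higher and no member was called lower, in a comparison where 2.12% of tested genes rose. Sall2 measured 94.3 and 90.9 CPM without FGF4, against 44.5 and 41.0 CPM in full medium (1.12, SE 0.13, adjusted p = 5.1e-08). Zic2 measured 283 and 271 CPM without FGF4 and 168 and 194 CPM with it, a difference of 0.62 (SE 0.13, adjusted p = 0.00042) that stayed under the size threshold. Both genes were higher in both libraries without FGF4 than in either library of full medium. Zic5 (0.35, SE 0.094, adjusted p = 0.0067) and Pou3f1 (0.71, SE 0.24, adjusted p = 0.037) also passed on p but not on size, as did Otx2 in the other direction (−0.76, SE 0.13, adjusted p = 3.4e-05). Fgf5 averaged 66.5 ± 6.2 CPM without FGF4 and 69.8 ± 6.0 CPM with it, with an adjusted p of 0.90. In the same libraries 10 of 14 visceral endoderm genes fell, their sum being 1188 to 1306 CPM without FGF4 and 2878 to 4214 CPM with it, and 10 of 14 naive genes fell. Among ERK target genes 1 of 8 fell, Dusp4. The part of the cell mixture in the member values was not tested.

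Neither BMP4 nor XAV939 omission gave a member call by edgeR or DESeq2, in comparisons with 0.0559% and 2.14% of tested genes called. In each, 2 members had an unadjusted p below 0.05. At an adjusted p below 0.05 without the size threshold, 1 member passed: Otx2 averaged 86.9 ± 12 CPM without XAV939 and 126 ± 11 CPM with it (−0.53, SE 0.13, adjusted p = 0.0058). In the same comparison 9 of 14 visceral endoderm genes fell, with sums of 1297 to 1765 CPM without XAV939 and 2878 to 4214 CPM with it, and 3 of 10 streak genes fell and 1 rose. Their part in the Otx2 value was not tested. The other adjusted p-values ran from 0.24 to 1 without BMP4 and from 0.22 to 0.71 without XAV939.

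In P25 cells relative to EPSCs (set 2) no member was called by edgeR, although 18.7% of tested genes were and 4 members had an unadjusted p below 0.05. Sall2 averaged 8.27 ± 0.76 CPM in P25 and 4.75 ± 0.006 CPM in EPSCs (0.80, SE 0.17, adjusted p = 0.00026), and Zic2 51.7 ± 0.80 CPM in P25 and 30.8 ± 2.3 CPM in EPSCs (0.75, SE 0.13, adjusted p = 2.1e-05), both under the size threshold. Fgf5 averaged 0.547 ± 0.023 CPM in P25 and 0.188 ± 0.039 CPM in EPSCs (1.53, SE 0.73, adjusted p = 0.098), on 11 and 9 counts against 4 and 3. Otx2, Pou3f1 and Zic5 had adjusted p-values of 0.62, 0.066 and 0.15. In the same comparison 10 of 14 visceral endoderm genes rose, and 9 of 14 naive genes and 6 of 8 ERK targets fell. Fgf5 is the 1 member called by DESeq2 there (adjusted p = 0.047), and with the 4 EPSC libraries pooled both Fgf5 (1.42) and Zic2 (1.19) are called. Between P38 and P25 no member was called by edgeR or DESeq2, where 0.339% of tested genes were. Adjusted p-values ran from 0.15 to 1, and 3 members had an unadjusted p below 0.05.

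S2 aggregates held less Pou3f1 and Otx2 than P25 cells, where 11.4% of tested genes fell. Pou3f1 measured 0.401 and 0.660 CPM in S2, against 7.37 and 5.55 CPM in P25, and fell by 3.60 (SE 0.42, adjusted p = 8.9e-09). Otx2 measured 3.44 and 4.24 CPM in S2, against 14.8 and 13.0 CPM in P25, and fell by 1.86 (SE 0.16, adjusted p = 5.8e-12). The S2 libraries lay below both P25 libraries for each gene. Zic2 averaged 71.1 ± 0.48 CPM in S2 and 51.7 ± 0.80 CPM in P25 (0.46, SE 0.13, adjusted p = 0.0049), and Zic5 33.3 ± 0.32 CPM in S2 and 32.7 ± 1.2 CPM in P25 (0.03, adjusted p = 0.89). Sall2 averaged 11.6 ± 1.1 CPM in S2 and 8.27 ± 0.76 CPM in P25 (0.48, SE 0.15, adjusted p = 0.013), and Fgf5 0.254 ± 0.13 CPM in S2 and 0.547 ± 0.023 CPM in P25 (adjusted p = 0.15). The other formative list fell in 7 of 19 genes and rose in 2, and 7 of 13 neural genes fell, among them Ncam1, Tubb3 and Nes, and 1 rose. Of 14 visceral endoderm genes 8 fell and none rose, with sums of 52.1 to 55.4 CPM in S2 and 210 to 215 CPM in P25. The part of these cells in the Otx2 value was not tested. Which passage of S1 cells gave the aggregates is not stated, and P25 stands here as the S1 culture of the same set. In 2-day S1 cells of set 1 Otx2 averaged 0.480 ± 0.030 CPM, below S2, and Pou3f1 3.20 ± 0.25 CPM, above S2. The direction for Otx2 therefore depends on which S1 culture is taken, and no test across the sets was run. Read mates also seem counted separately in S2 and together in P25.

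Between S3 and S2 no member was called by edgeR or DESeq2, where 5.28% of tested genes were and 2 members had an unadjusted p below 0.05. Otx2 averaged 6.92 ± 0.041 CPM in S3 and 3.84 ± 0.57 CPM in S2 (0.85, SE 0.16, adjusted p = 0.00013), under the size threshold, and it reached 1.00 without the second S2 library. The other 5 genes had adjusted p-values from 0.051 (Sall2) to 1.

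Leaving out the agents of the 4C-64C medium changed different members. Without 8Br-cAMP, a cyclic AMP analogue, Otx2 fell at both stages. It measured 1.02 and 1.00 CPM in S2 without 8Br-cAMP, against 3.44 and 4.24 CPM in full S2 medium (−1.92, SE 0.20, adjusted p = 1e-08), where 1.28% of tested genes fell. At S3 it measured 0.651 and 1.11 CPM without 8Br-cAMP, against 6.89 and 6.95 CPM in full medium (−3.02, SE 0.19, adjusted p = 8.3e-15), where 3.8% fell. All 4 libraries without 8Br-cAMP lay below every library with it. Sall2 rose at S3, at 20.4 and 19.5 CPM without 8Br-cAMP, against 8.95 and 8.62 CPM (1.19, SE 0.14, adjusted p = 3.7e-08), where 2.83% of tested genes rose, and at S2 its difference was 0.54 (SE 0.14, adjusted p = 0.012). Fgf5, Pou3f1, Zic2 and Zic5 did not pass the test at either stage. At S3 the other formative list split, with Lef1, Cdh2 and Lin28a among the 6 that rose, while 3 fell, and 10 of 14 naive genes fell. Of the visceral endoderm list, whose anterior cells also make OTX2, 6 of 14 genes fell at S3 and none rose, with sums of 48.8 to 49.2 CPM without 8Br-cAMP and 139 to 144 CPM with it. At S2 1 of 14 fell, with sums of 37.3 to 37.8 CPM without 8Br-cAMP and 52.1 to 55.4 CPM with it. Their part in the Otx2 values was not tested.

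Without CHIR, Pou3f1 rose at both stages. It measured 5.29 and 7.14 CPM in S2 without CHIR, against 0.401 and 0.660 CPM in full S2 medium (3.53, SE 0.40, adjusted p = 1.8e-08), where 2.86% of tested genes rose. At S3 it measured 5.17 and 5.55 CPM without CHIR, against 0.510 and 0.357 CPM (3.62, SE 0.40, adjusted p = 5.6e-09), where 5.04% rose. At S2 levels without CHIR overlapped those of P25 cells (7.37 and 5.55 CPM). At S3 the higher library without CHIR lay just under the lower P25 library (5.54541 and 5.5455 CPM). At neither stage did levels without CHIR overlap those of full medium. Fgf5 measured 0.801 and 0.633 CPM in S2 without CHIR, against 0.344 and 0.165 CPM (1.50, SE 0.48, adjusted p = 0.030), and 0.686 and 0.478 CPM in S3 without CHIR, against 0.186 and 0.0447 CPM (2.32, SE 0.56, adjusted p = 0.0016). These are 18 to 30 counts a library without CHIR and 2 to 12 with it. The S2 call of Fgf5 was lost without either S2 library lacking CHIR (1.30 and 1.66) or without the second full S2 library (1.05), and was 2.10 without the first. The S3 call was lost without the second full S3 library (1.65), and the value was 3.62 without the first.

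Otx2 averaged 13.0 ± 0.36 CPM in S3 without CHIR and 6.92 ± 0.041 CPM with it (0.91, SE 0.14, adjusted p = 4.8e-06), and 6.86 ± 0.029 CPM without it and 3.84 ± 0.57 CPM with it at S2 (0.84, SE 0.16, adjusted p = 0.00016), both under the size threshold. Zic2 at S3 (0.67, SE 0.13) and Zic5 at both stages (0.46, SE 0.096 at S2 and 0.63, SE 0.096 at S3) were likewise higher without CHIR on adjusted p alone. So was Sall2 at S2, at 18.8 and 18.7 CPM without CHIR, against 10.8 and 12.3 CPM with it (0.70, SE 0.14, adjusted p = 0.00037), but not at S3 (0.15, adjusted p = 0.51), and Zic2 did not pass at S2 (0.15, adjusted p = 0.52). Lef1, itself a Wnt target, averaged 0.913 ± 0.015 CPM in S3 without CHIR and 15.7 ± 0.096 CPM with it. Markers of other cell types moved in the same libraries: 9 of 14 visceral endoderm genes rose at S3 (sums of 564 to 586 CPM without CHIR and 139 to 144 CPM with it), 7 of 13 neural genes rose (86.8 to 88.9 CPM without CHIR and 25.9 CPM with it) and 5 of 10 streak genes fell while 2 rose. At S2 5 visceral endoderm and 4 neural genes rose and 4 streak genes fell. Their part in the member values was not tested.

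Without CD1530, Pou3f1 and Fgf5 rose at S3 and Pou3f1 at S2, all at low levels. At S3 Pou3f1 measured 1.30 and 1.64 CPM without CD1530, against 0.510 and 0.357 CPM in full medium (1.77, SE 0.47, adjusted p = 0.0052), where 1.97% of tested genes rose. At S2 it measured 2.27 and 1.29 CPM without CD1530, against 0.401 and 0.660 CPM (1.72, SE 0.47, adjusted p = 0.016), where 0.718% rose. Fgf5 measured 0.419 and 0.391 CPM in S3 without CD1530, against 0.186 and 0.0447 CPM (1.80, SE 0.58, adjusted p = 0.024). No groups overlapped. Sall2 was lower without CD1530, at 8.14 ± 0.74 CPM against 11.6 ± 1.1 CPM in full medium at S2 (−0.51, SE 0.14, adjusted p = 0.024) and at 6.43 ± 0.0067 CPM against 8.79 ± 0.23 CPM at S3 (−0.45, SE 0.15, adjusted p = 0.024), under the size threshold. Zic5 at S3 differed by 0.28 (SE 0.096, adjusted p = 0.033), and the other members had adjusted p-values from 0.34 to 0.95. At S3 7 of 19 other formative genes rose and none fell, 4 of 8 ERK targets rose, and 5 of 10 streak genes rose and 1 fell. The streak sums were 154 to 165 CPM without CD1530 and 53.4 to 65.4 CPM with it at S3, and 154 to 160 CPM without CD1530 and 54.0 to 54.6 CPM with it at S2. Their part in the member values was not tested. Each of the Pou3f1 and Fgf5 calls was lost with 1 library left out. The S3 Pou3f1 call was lost without the second S3 library lacking CD1530 (1.58) or the second full S3 library (1.54). The S2 call was lost without the first S2 library lacking CD1530 (1.26), the first full S2 library (1.41) or the second (2.12). The Fgf5 call was lost without either S3 library lacking CD1530 (1.76 and 1.85) or without the second full S3 library (1.12), and the value was 3.09 without the first.

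Without Birabresib, Zic2 fell at S2, and the members that passed on adjusted p moved in both directions. At S2 Zic2 measured 26.9 and 31.6 CPM without Birabresib, against 70.7 and 71.4 CPM in full medium, and fell by 1.28 (SE 0.13, adjusted p = 4e-08), where 0.128% of tested genes fell. Zic5 measured 22.3 and 21.0 CPM without Birabresib, against 33.6 and 33.1 CPM (−0.62, SE 0.098, adjusted p = 4.4e-05), under the size threshold. Sall2 went the other way, at 17.2 ± 1.2 CPM without Birabresib and 11.6 ± 1.1 CPM with it (0.57, SE 0.14, adjusted p = 0.0072), while Otx2 (0.47), Fgf5 (−0.97) and Pou3f1 (0.31) did not pass (adjusted p of 0.058 to 0.82). Both Zic genes were lower in every library without Birabresib than in any with it, and the same held at S3. There Zic2 averaged 40.2 ± 1.6 CPM without Birabresib and 70.5 ± 6.4 CPM with it (−0.81, SE 0.13, adjusted p = 1.6e-05), and Zic5 differed by −0.60 (SE 0.097). Otx2 went upward, at 12.6 and 12.4 CPM without Birabresib, against 6.89 and 6.95 CPM in full S3 medium (0.85, SE 0.14, adjusted p = 3.4e-05), and Sall2 was higher by 0.42 (SE 0.14, adjusted p = 0.033). All 4 stayed under the size threshold. At S3 no member was called by edgeR or DESeq2, where 6.21% of tested genes were and 4 members had an unadjusted p below 0.05. Averaged over the 4 omissions at S3, Pou3f1 alone was called (1.43, SE 0.42, adjusted p = 0.014), where 1.37% of tested genes rose. Otx2 (−0.35, adjusted p = 0.036) and Sall2 (0.33, adjusted p = 0.045) passed on p but not on size. The Pou3f1 call was lost without the first (1.70) or the second (1.20) full S3 library.

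**Figure D3:**
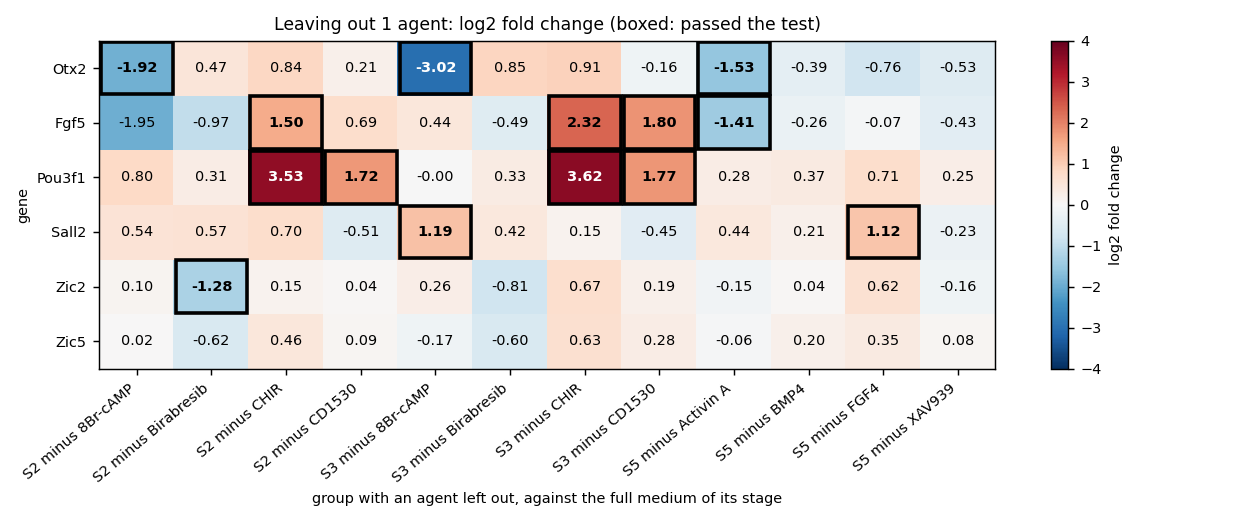
Log2 fold change of each gene (rows) in each medium lacking 1 agent relative to full medium of the same stage (columns), with called values boxed. Otx2 is lowest without 8Br-cAMP (−1.92 at S2 and −3.02 at S3), and Pou3f1 is highest relative to full medium without CHIR (3.53 at S2 and 3.62 at S3).

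In EPSCs, 2 days of totipotency medium (S1) lowered Otx2, Pou3f1 and Zic5 and raised Fgf5 and Sall2, where 9.16% of tested genes fell and 18.7% rose. Otx2 measured 0.501 and 0.459 CPM in S1, against 24.2 and 26.8 CPM in EPSCs of set 1. Fgf5 measured 0.930 and 0.869 CPM in S1, against 0.178 and 0.246 CPM in EPSCs (2.08, SE 0.41, adjusted p = 5.7e-05), and Sall2 22.1 and 24.8 CPM in S1, against 6.44 and 8.03 CPM in EPSCs (1.70, SE 0.14, adjusted p = 7.4e-13). Otx2 was lower, and Fgf5 and Sall2 higher, in both S1 libraries than in either EPSC library. Zic5 measured 8.71 and 9.75 CPM in S1, against 21.4 and 21.3 CPM in EPSCs (−1.21, SE 0.099, adjusted p = 4.9e-13). Zic2 averaged 10.5 ± 1.6 CPM in S1 and 15.0 ± 0.37 CPM in EPSCs (−0.51, SE 0.13, adjusted p = 0.0014), under the size threshold. Pou3f1 measured 3.38 and 3.03 CPM in S1, against 7.02 and 7.14 CPM in EPSCs (−1.14, SE 0.27, adjusted p = 0.00056). With the 4 EPSC libraries pooled, the Pou3f1 call was lost (−0.78) and Zic2 was called (−1.11).

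Around the members, 10 of 19 other formative genes fell in S1 and 1 rose. Tdgf1 averaged 67.2 ± 15 CPM in S1 and 621 ± 47 CPM in EPSCs, and Etv4 and Etv5, ERK-driven ETS factors, fell with it. All 8 ERK target genes fell (Spry4 averaged 1.64 ± 0.21 CPM in S1 and 170 ± 5.5 CPM in EPSCs), as did 13 of 14 naive genes. Of 12 paralogs of the members 5 fell and 1 rose, with sums of 189 to 197 CPM in S1 and 763 to 783 CPM in EPSCs. The paralog that rose was Zic1, at 2.19 ± 0.32 CPM in S1 and 0.218 ± 0.10 CPM in EPSCs (3.28, SE 0.40). Of the visceral endoderm list 7 of 14 rose, with sums of 94.7 to 94.9 CPM in S1 and 15.7 to 16.6 CPM in EPSCs.

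In EPSCs given CHIR alone for 2 days, 5 of the 6 genes rose and Otx2 fell relative to EPSCs in LCDM. Of tested genes 11.7% rose and 6.99% fell. LCDM itself contains CHIR and the base medium of the CHIR groups was not given. The part of CHIR therefore cannot be told apart from that of a change of medium. Fgf5 measured 1.99 and 2.53 CPM with CHIR, against 0.178 and 0.246 CPM in EPSCs (3.39, SE 0.40, adjusted p = 8.2e-09). Zic5 measured 54.4 and 61.9 CPM with CHIR, against 21.4 and 21.3 CPM (1.45, SE 0.098, adjusted p = 7.6e-15), and Otx2 12.7 and 10.9 CPM with CHIR, against 24.2 and 26.8 CPM in EPSCs (−1.11, SE 0.14, adjusted p = 2.5e-08). The groups did not overlap for any of the 6 genes. Sall2 averaged 20.3 ± 6.2 CPM with CHIR and 7.23 ± 1.1 CPM in EPSCs (1.50, SE 0.14), and Zic2 31.5 ± 9.2 CPM with CHIR and 15.0 ± 0.37 CPM in EPSCs (1.08, SE 0.13). The CHIR libraries differed from each other for Pou3f1, at 65.3 and 26.5 CPM, against 7.02 and 7.14 CPM in EPSCs (2.71, SE 0.27, adjusted p = 1.2e-10). Without the first CHIR library Pou3f1 gave 1.86 and Zic2 0.69, under the size threshold. With the 4 EPSC libraries pooled, Otx2 (−0.78) and Zic2 (0.47) were not called. Among the lists, 10 of 14 visceral endoderm genes rose and none fell, with sums of 337 to 399 CPM with CHIR and 15.7 to 16.6 CPM in EPSCs. Of 14 naive genes 13 fell, of 8 ERK targets 5 fell, and of 10 streak genes 5 rose and 2 fell. Of 13 neural genes 2 rose and 4 fell, where Sox1 and Tubb3 had no count in set 1 and could not be called. Of 19 other formative genes 5 rose and 3 fell. The part of these cells in the member values was not tested.

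Adding CD1530 to CHIR lowered 5 of the 6 genes, where 6.91% of tested genes fell. Otx2 measured 0.107 and 0.0822 CPM with CHIR and CD1530, on only 4 counts in each library, against 12.7 and 10.9 CPM with CHIR alone. Zic5 measured 7.42 and 7.65 CPM with both, against 54.4 and 61.9 CPM with CHIR (−2.95, SE 0.11, adjusted p = 2.7e-22), and Zic2 7.68 and 6.91 CPM with both, against 38.0 and 25.0 CPM with CHIR (−2.12, SE 0.14, adjusted p = 5.4e-15). Both Zic genes were at their lowest of all groups with CHIR and CD1530. Fgf5 measured 0.322 and 0.452 CPM with both, against 1.99 and 2.53 CPM (−2.49, SE 0.35, adjusted p = 3.8e-07). Pou3f1 measured 10.4 and 9.87 CPM with both, against 65.3 and 26.5 CPM with CHIR (−2.19, SE 0.26, adjusted p = 7.5e-09), and −1.32 without the first CHIR library. Sall2 averaged 21.0 ± 1.1 CPM with both and 20.3 ± 6.2 CPM with CHIR (0.04, SE 0.14, adjusted p = 1). Of the other formative genes 12 of 19 fell and none rose, led by Lef1, Tdgf1 and Etv5. Among ERK targets 5 of 8 fell and none rose. In the same libraries 9 of 14 visceral endoderm genes rose and 1 fell, with sums of 2598 to 2607 CPM with both and 337 to 399 CPM with CHIR, and Gata4 and Gata6 were among those that rose. Of 13 neural genes 6 rose and 1 fell, where Sox1 and Tubb3 again had no count. Of 10 streak genes 2 rose and 5 fell. The part of these cells in the fall of the members was not tested.

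Elvitegravir and PD0325901 gave no member call by edgeR or DESeq2 when added to CHIR, with 2 and 4 members at an unadjusted p below 0.05. With Elvitegravir, 0.00798% of tested genes were called and the members' adjusted p-values ran from 0.12 to 0.95. Without the first CHIR library, Pou3f1 would be called higher with Elvitegravir (1.19). With PD0325901, 4.51% of tested genes were called. Over all tested genes, CHIR and CHIR plus PD0325901 libraries of the same number deviated together (r = 0.43), and the test did not pair them. Zic2 measured 66.9 and 51.9 CPM with PD0325901, against 38.0 and 25.0 CPM with CHIR alone (0.91, SE 0.13, adjusted p = 2.1e-06), and Zic5 81.0 and 74.5 CPM, against 54.4 and 61.9 CPM (0.42, SE 0.095, adjusted p = 0.0017). Sall2 differed by −0.53 (SE 0.14, adjusted p = 0.0075), and these 3 stayed under the size threshold. Zic2 reached 1.28 without the first CHIR library and 1.09 without the second PD0325901 library. Pou3f1 (−0.63, adjusted p = 0.099) would be called without the second CHIR library (−1.14) or without the first PD0325901 library (−1.15). Of 8 ERK target genes 5 fell with PD0325901 (median log2 fold change −1.07). With CD1530 added to CHIR 5 of 8 fell as well (median −1.21), so such a fall was not particular to the MEK inhibitor. With PD0325901 9 of 14 visceral endoderm genes fell and 1 rose, with sums of 163 to 195 CPM with PD0325901 and 337 to 399 CPM with CHIR alone. Of 14 naive genes 7 rose and none fell. Otx2 (0.14) and Fgf5 (−0.01) had adjusted p-values of 0.74 and 1.

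S1 was also set against CHIR plus CD1530 and CHIR plus PD0325901, which reuses the S1 libraries of the comparison with EPSCs. The treatment labels do not give the composition of the totipotency medium, nor the base medium of the CHIR groups. These contrasts therefore cannot be assigned to single components. Against CHIR plus CD1530, where 7.78% of tested genes rose and 3.51% fell, Otx2 rose to 0.480 ± 0.030 CPM in S1, against 0.0948 ± 0.018 CPM with CHIR and CD1530 (2.34, SE 0.39, adjusted p = 8.8e-06), and Pou3f1 averaged 3.20 ± 0.25 CPM in S1 and 10.1 ± 0.36 CPM with CHIR and CD1530 (−1.65, SE 0.27, adjusted p = 6e-06). The Otx2 value rests on 4 counts in each library with CHIR and CD1530. Zic2 (0.53, adjusted p = 0.0032) and Zic5 (0.29, adjusted p = 0.030) stayed under the size threshold, and Sall2 differed by 0.16 (adjusted p = 0.46). Fgf5 was also called (1.19, SE 0.36, adjusted p = 0.011), but not without the first CHIR plus CD1530 library (0.99) or the first S1 library (1.13). Against CHIR plus PD0325901, where 5.94% of tested genes fell, 5 of the 6 genes fell in S1: Otx2 (−4.75, SE 0.18), Pou3f1 (−3.22, SE 0.27), Zic5 (−3.08, SE 0.10), Zic2 (−2.51, SE 0.13) and Fgf5 (−1.29, SE 0.26). Sall2 averaged 23.4 ± 2.0 CPM in S1 and 14.1 ± 2.4 CPM with PD0325901 (0.72, SE 0.14, adjusted p = 3.4e-05).

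**Figure D4:**
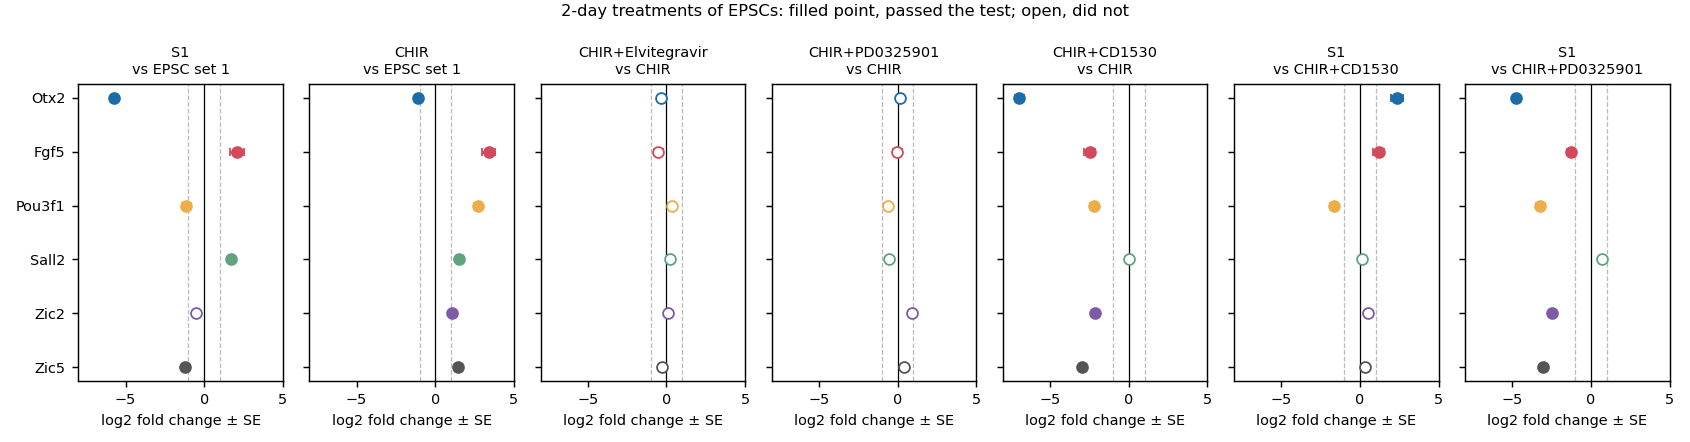
Log2 fold change with its SE (horizontal axis) of each gene (vertical axis) in 7 comparisons among the 2-day treatments of EPSCs, filled where the gene was called and open where it was not, with dashed lines at 1 and −1. Otx2 lies at −5.72 in S1 against EPSCs and at −6.94 with CD1530 against CHIR alone, and no point is filled for Elvitegravir or PD0325901 against CHIR.

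In mESCs moved from 2i/L to the same medium, Otx2 changed the other way. The part of the totipotency medium cannot be told apart from that of leaving 2i/L. The same holds for EPSCs moved from LCDM to totipotency medium. Otx2 measured 13.9 and 13.3 CPM in mESC-S1, against 4.42 and 3.21 CPM in mESCs (1.84, SE 0.15, adjusted p = 1.6e-12), where 14.2% of tested genes rose. Zic2 measured 75.1 and 80.5 CPM in mESC-S1, against 33.2 and 28.5 CPM (1.33, SE 0.13, adjusted p = 7.9e-11). Fgf5 had 26 counts over both mESC-S1 libraries and none in mESCs, in libraries where read mates seem counted separately. It rose (adjusted p = 0.00046), 6.28-fold relative to a nominal floor of 3 counts over the mESC group, which is not a strict bound. The groups did not overlap for these 3 genes. Zic5 (0.53, SE 0.097, adjusted p = 2.1e-05) and Sall2 (0.56, SE 0.14, adjusted p = 0.0013) were under the size threshold, and Pou3f1 averaged 4.94 ± 0.52 CPM in mESC-S1 and 3.13 ± 0.12 CPM in mESCs (adjusted p = 0.084). Of the other formative genes 7 of 19 rose and 4 fell, Wnt8a and Sox3 among those that rose and Lef1 among those that fell. Of the ERK targets 5 of 8 rose and 2 fell. Of 14 visceral endoderm genes 7 rose and 1 fell, with sums of 127 to 136 CPM in mESC-S1 and 30.7 to 31.4 CPM in mESCs. Of 10 streak genes 5 rose and 1 fell, of 13 neural genes 4 rose and none fell, and of 14 naive genes 7 fell. Their part in the Otx2 and Zic2 values was not tested.

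The starting cells themselves differed, with 9.94% of tested genes lower and 9.66% higher in mESCs than in EPSCs of set 2. Otx2 measured 4.42 and 3.21 CPM in mESCs, against 14.3 and 15.6 CPM in EPSCs (−1.98, SE 0.16, adjusted p = 7.9e-13), and Sall2 10.6 and 9.95 CPM in mESCs, against 4.75 and 4.76 CPM in EPSCs (1.11, SE 0.16, adjusted p = 7.1e-07). Cell line and culture medium (2i/L for mESCs, LCDM for EPSCs) differ together here. Read mates also seem counted separately in the mESC libraries and together in these EPSC libraries. The parts of line, medium and counting cannot be told apart. In the same comparison 6 of 8 ERK targets were lower in mESCs and none was higher. Fgf5 had no count in mESCs and 7 in EPSCs. It was called lower in mESCs (adjusted p = 0.010), 4.22-fold relative to a nominal floor of 3 counts over the group, which is not a strict bound. That call was lost without the first EPSC library of the set (adjusted p = 0.056) or without the second mESC library (adjusted p = 0.064). Pou3f1, Zic2 and Zic5 had adjusted p-values of 0.51 to 1. With the 4 EPSC libraries pooled the Sall2 call was lost (0.76).

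The response to the medium was then compared directly, as the change in mESCs minus the change in EPSCs, each within its own set, where 8.7% of tested genes were called higher and 9.97% lower. For Otx2 the difference was 7.56 (SE 0.23, adjusted p = 6.9e-24), from 1.84 in mESCs and −5.72 in EPSCs. Zic2 (1.85, SE 0.19, adjusted p = 3e-10), Pou3f1 (1.80, SE 0.41, adjusted p = 0.00057) and Zic5 (1.74, SE 0.14, adjusted p = 9.5e-13) also gave higher values in mESCs, and Sall2 a lower one (−1.13, SE 0.20, adjusted p = 1.6e-05). Fgf5, with no count in mESCs, did not pass (adjusted p = 0.086), and it was called without the first mESC-S1 library (adjusted p = 0.040). In the same test 12 of 19 other formative genes, 12 of 14 naive genes and 7 of 8 ERK targets were higher in the mESC response, and none of these 3 lists held a gene called lower. Cell line, starting medium and set of libraries differ together between these responses and cannot be told apart.

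**Figure D5:**
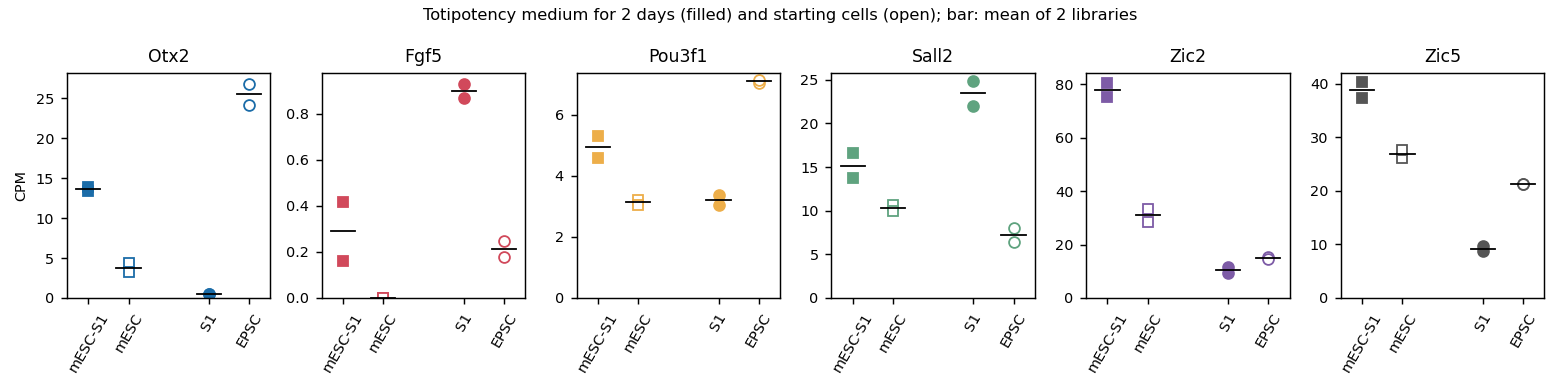
Level of each gene (linear axis, CPM) after 2 days of totipotency medium (filled points) and in the starting cells (open points), for mESCs (squares) and EPSCs of set 1 (circles), with bars at the means of 2 libraries. Otx2 lies higher in mESC-S1 (13.9 and 13.3 CPM) than in mESCs and lower in S1 (0.501 and 0.459 CPM) than in EPSCs.

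Among themselves the genes followed each other unevenly. Over the 26 group means of log2 CPM, which share the spread between S5 and the other groups, Pearson's r was 0.89 for Fgf5 and Pou3f1, 0.87 for Zic2 and Zic5 and 0.82 for Otx2 and Zic5. Over the 21 means without the S5 groups these were 0.75, 0.75 and 0.66. Otx2 and Sall2 gave 0.30 over all means and −0.54 without S5, so their levels ran in opposite directions outside the S5 groups. The neighbours Zic2 and Zic5 also did not keep a fixed ratio: counts of Zic2 per count of Zic5 averaged 0.551 ± 0.21 with CHIR and 3.02 ± 0.47 in S3 without 8Br-cAMP. The ratio was 0.702 ± 0.015 in EPSCs of set 1 and 1.08 ± 0.010 in EPSCs of set 2, so it moved with the set as well.

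The genes whose group means followed each member most closely were sought among 12728 genes, over the same 26 means. For Pou3f1 they included Fam169a (r = 0.95) and Slc7a7 (0.94), and for Fgf5 they were Pcdh8 (0.95), Kcnj5 (0.94) and Phf21a (0.93). Slc7a7, an amino acid transporter gene, averaged 204 CPM in S5 and 4.57 CPM in S3, and Kcnj5, a potassium channel gene, 6.85 CPM in S5 and 0 in S3. For Zic2 the closest were Marchf6 (0.90), Kdm7a (0.90) and Fam49a (0.89), and for Sall2 Fam217b (0.89), Nfasc (0.89) and Limd2 (0.89). For Otx2 they were Abl2 (0.88), Slc25a33 (0.86) and Tle4 (0.86), and for Zic5 they included Abl2 again (0.88) and Dip2b (0.87). These are descriptions over groups that share cell lines and libraries, with no test.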

How the data were processed

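Poly(A) mRNA of 52 libraries was sequenced in pairs after RNeasy extraction, oligo-dT capture and random-hexamer priming, per the labels' protocols. The submitters' processing notes list Trimmomatic 0.39, STAR 2.7.10b and featureCounts 2.0.6 and the mm10 build. The sources used here do not give annotation, strand setting or pair handling. As the authors deposited them, the values are whole-number counts for each gene, not normalized. Per the deposited counts themselves, 66.8% to 80.5% of the values from 1 to 10 were even in 46 libraries, where mates seem counted separately, and 40.7% to 42.0% in 6 (EPSCs of set 2, P25 and P38).

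Groups follow the treatment labels, with the 4 EPSC libraries split by set. Genes passing filterByExpr were scaled by TMM and fitted in a single quasi-likelihood model with 26 means and 26 residual degrees of freedom (edgeR 4.0.16, limma 3.58.1, R 4.3.3), and 29 contrasts were tested. Genes were called at a Benjamini-Hochberg adjusted p under 0.05 with a log2 fold change at least 1 in size. The SE is the log2 fold change over the square root of F. The rule for named genes takes every member in every comparison, by its values or within a range; from the lists, counts in the main comparisons and up to 3 called genes with the smallest adjusted p; and for each member its 3 most alike genes, with 5 CPM or more in a group, by Pearson's r on log2 CPM with a prior count of 2. The members, the lists and the promoter motifs were chosen with earlier results of these data known, so they give no independent support. Foxd3 and Hes5 of the lists were not tested for want of counts. Some genes that the rule names are not reported here.

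On simulated counts for 6000 genes in the S5 and S3 comparison, 89% of 100 genes changed by 1.5 on the log2 scale and 100% of 100 changed by 3 were called, with 3 of 5686 unchanged genes called. The changed genes were drawn above a CPM cut that Fgf5 and Pou3f1 did not reach in S3. These shares therefore do not cover calls at such low levels. Alternatives were RLE size factors, no filter, DESeq2 1.42.0, each family of libraries alone, a replicate block, halved counts where mates seem counted separately, the EPSC libraries pooled, and each library left out in turn with the dispersion trend kept. Leaving out the second CHIR and PD0325901 libraries together was added after the data were seen. Exon lengths and coordinates are from GENCODE M21.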

Additional observations from a re-analysis of the deposited data

Results flagged for a closer look

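The response to 2 days of totipotency medium differed between mESCs and EPSCs for 5 of the 6 genes, by an edgeR test of the difference itself. The log2 change in mESCs minus that in EPSCs was 7.56 for Otx2, 1.85 for Zic2, 1.80 for Pou3f1, 1.74 for Zic5 and −1.13 for Sall2. Cell line, starting medium and set of libraries differ together between these responses, so their parts cannot be told apart.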

How the results depend on the processing

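A member result counted as kept where its call was the same. Direction was compared only where a result was called in either run. RLE size factors kept all 174 member results (6 genes in 29 comparisons), and no filter and DESeq2 each kept 173. Each family alone kept 171 of 173, halved counts 169 and the pooled EPSC libraries 28 of 36. No called member result turned its direction under any of these, and the direction of uncalled results was not compared. A family-alone value could not be had for Fgf5 in mESC-S1 against mESCs, where it did not pass the filter. Leaving out 1 library kept 730 of 756 results, and leaving out the second CHIR and PD0325901 libraries together kept 42 of 42.

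The number of members called moved by more than 1.5 times as follows. In P25 against EPSCs it was 2 with the EPSC libraries pooled, 1 with halved counts and 1 with DESeq2, in place of 0. With halved counts it was 0 in place of 1 for the mean of the S3 omissions and for S2 without CD1530, and 1 in place of 2 for S2 without CHIR and S3 without CD1530. With each family alone it was 1 for S2 without CHIR and 1 for S3 without CD1530. In these cases the calls gained were Fgf5 and, with the EPSC libraries pooled, Zic2; those lost were Pou3f1 in the S3 omissions mean and S2 without CD1530, and Fgf5 in the others. Smaller moves with the EPSC libraries pooled were 4 in place of 6 for CHIR against EPSCs (Otx2 and Zic2 lost), 2 in place of 3 for mESCs against EPSCs (Sall2 lost), 6 in place of 5 for the response difference (Fgf5 gained), and Pou3f1 lost and Zic2 gained in S1 against EPSCs. The cause was not tested. With 1 library left out, members called ran from 0 to 1 for CHIR plus Elvitegravir against CHIR, S3 against S2, the S3 omissions mean and S2 without CD1530, from 1 to 2 for S2 and S3 without CHIR, and from 0 to 2 for S3 without CD1530, and stood at 1 in each case for CHIR plus PD0325901 against CHIR. They ran from 5 to 6 for CHIR against EPSCs and the response difference, and from 2 to 3 for S1 against CHIR plus CD1530 and mESCs against EPSCs.

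Counts over all genes moved by more than 1.5 times in these cases. For CHIR against EPSCs, 4673 became 7564 with the EPSC libraries pooled. For CHIR plus Elvitegravir, 2 became 0 with halved counts, with its family alone and without the second CHIR and PD0325901 libraries, 56 with DESeq2, 70 with the block and 142 without the filter, and was 1562 without the first CHIR library and 0 without any other. For P38 against P25, 85 became 138 with halved counts and 192 with its family alone, and 45 and 52 without either P25 library. For S5 without BMP4, 14 became 27 with DESeq2, 36 without the filter and 0 with its family alone, and ran from 0 to 108 with a library left out, the highest without the first S5 library. With a library left out, S5 without XAV939 ran from 182 to 991 in place of 536, S2 without Birabresib reached 366 in place of 746 and the S3 omissions mean 385 in place of 664, each lowest value without an S5, S2 or S3 library. The replicate block kept all 174 member results. Deviations of libraries of the same number correlated from −0.0310 to 0.432 over 24 comparisons, with 1 above 0.1. That value was for CHIR plus PD0325901 against CHIR, whose libraries of the same number deviated together. The other comparisons showed no such link, and the cause of this one was not tested. The 3 most alike genes of each member, 18 in all, kept 4 places by Spearman's rho and 2 over the means of set 2 alone. Depth limits Fgf5 outside S5, where each library of set 2 held from 0 to 30 counts. It also limits Otx2 with CHIR and CD1530, where each library held 4 counts.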
